A study of Drosophila melanogaster with 7 samples.

Results

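Neurons talk to each other by releasing transmitter from vesicles, and the genes of that machinery, of the ion channels that fire it and of the cells around it were measured here in first-instar *Drosophila* larvae with and without a mutation in *pof*. The set was a list of 41 genes chosen by name: 14 of vesicle release, 11 of ion channels and the sodium pump, 6 of transmitter synthesis, transport, breakdown and reception, 4 of adhesion and the cytoskeleton, 3 neuronal regulators and 3 glial genes. Of these, 31 had a probe set that names only that gene, out of 10844 genes with such a probe set, and where a gene had several, the one with the highest mean was used. *Syt1*, *Syt4*, *Syx1A*, *Snap25*, *comt*, *cpx*, *VAChT*, *Fas2*, *scrt* and *Eaat1* were not analysed here. For *scrt* the name matched only as an old synonym of the sucrose transporter gene *Slc45-1*, which was not used.

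The 2 groups were pof mutant larvae (4 arrays) and wild-type larvae (3 arrays), and each array carried polyA RNA of 1 pool of 400 whole first-instar larvae of both sexes. The labels name neither the allele, nor the genetic background, nor the larval age within the instar. The *Pof* protein binds RNA and coats chromosome 4, and the gene's own probe set (141415_at) lay at 3.41 to 3.50 on the mutant arrays and at 3.64 to 3.90 on the wild-type arrays, levels close to the floor (limma, adjusted p = 0.323). The submitters call the pools biological replicates.

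At a synapse, a docked vesicle carries a SNARE protein that pairs with SNARE proteins of the plasma membrane, and calcium entering through a voltage-gated channel triggers fusion. Sodium and potassium channels shape the impulse that opens the calcium channel, and the sodium pump restores the gradients afterwards. In the fly most fast excitation inside the brain uses acetylcholine, the nerve-muscle synapse uses glutamate and fast inhibition uses GABA, while glia take up and recycle transmitter. In whole larvae, RNAs confined to neurons come from a small share of the body's cells. Some of the genes measured, among them *Nrg*, *nrv2* and *Gs2*, are also expressed in glia or other tissues. Fewer cells cannot be told apart from less RNA per cell, nor neurons from the other tissues that express a gene.

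All values are log2 expression values, and the level of 1 probe set cannot be set against that of another. Mean levels of the 31 genes ran from 3.44 to 9.31, 21 of them at 6 or more and 5 under 5, where true changes are understated. The probe set of *elav*, the textbook neuronal marker, had a mean of 3.77, at the 7.35 percentile of all probe sets, and that of the glial identity gene *repo* a mean of 4.19, at the 13.7 percentile.

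Transcripts were covered less evenly on some arrays than on others. The control probe sets for GAPDH, actin and eIF-4a read each transcript at both ends, and the mean excess of the 3' end over the 5' end (the 3' minus 5' difference) was 1.92 to 2.19 (log2) on 4 arrays, and 3.22 on pof mutant replicate 1, 3.95 on pof mutant replicate 2 and 4.32 on wild type replicate 1. Mutant arrays had a mean of 2.87 ± 0.88 (SD, n = 4) and wild-type arrays of 2.75 ± 1.35 (SD, n = 3), with an exact two-sided permutation p of 0.857. It is given beside the results below that move with it, and its part in them was not tested.

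No neuronal gene was found to differ between mutant and wild type once p was adjusted over all probe sets. None of the 31 genes passed limma's threshold (adjusted p under 0.05 over 13966 probe sets), against 0.0646% of all genes taken with 1 probe set each. The count with an unadjusted p under 0.05 was 2 of 31 (6.45%), against 5.73% of all genes. In no gene were the 2 groups of arrays fully separate, against 6.26% of all genes. Means were lower in the mutant for 16 genes and higher for 15, and the median difference of the mutant from wild type was -0.02 on the log2 scale, beside -0.02 for all genes, of which 58% had a lower mean.

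The genes that did have an unadjusted p under 0.05 were *Rdl* and *Shal*, both with higher means in the mutant. This count changed with the array left out. It was 1 without any one of the 4 mutant arrays or without wild type replicate 2. Without wild type replicate 1 it was 2 (*Rdl* and *Syn*). Without wild type replicate 3 it was 5 (*Rdl*, *Nrg*, *fne*, *Gs2* and *Shaw*), where 8% of all genes had such a p. For the other fits the share of all genes is not given, so these counts are no result about the members.

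How large a change the arrays could have missed differed between genes. The 95% interval of the difference (limma, for each gene alone) lay within -0.5 to 0.5, less than 1.41-fold either way, for 21 of the 31 genes (67.7%), against 83.8% of all genes. It lay within -1 to 1 for 29, and for 97.6% of all genes. The 2 exceptions were *nrv3*, with an interval of -0.22 to 1.04, and *Gs2*, with -0.30 to 1.57.

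**Figure D1:**
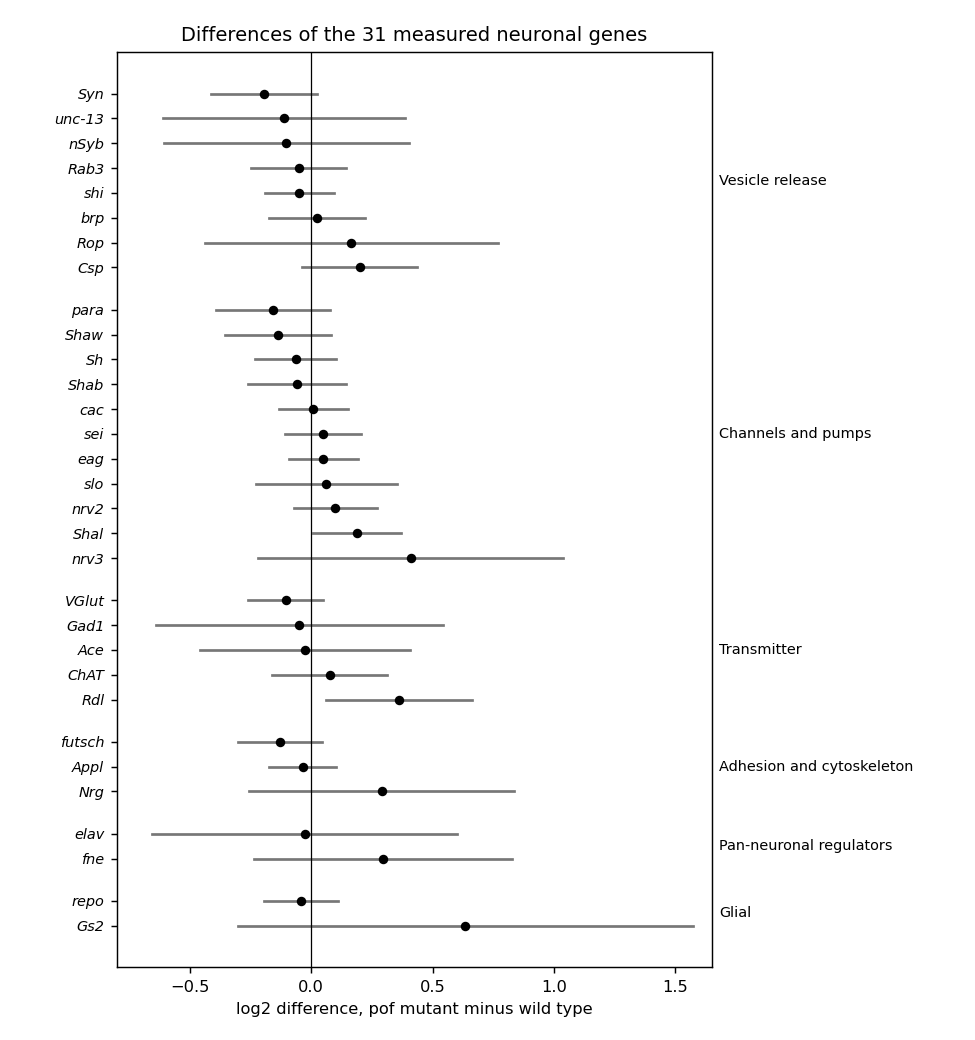
Log2 difference between pof mutant and wild type (points) with its 95% interval from limma (bars) for the 31 measured genes, grouped by role. Of the 31 intervals only those of *Rdl* (0.06 to 0.66) and *Shal* (0.0059 to 0.37) leave out 0, before any adjustment, and the widest is that of *Gs2* (-0.30 to 1.57).

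Of the vesicle release genes, 8 of 14 were measured, with a lower mutant mean in 5, a higher one in 3 and a median difference of -0.05. The smallest p in this group belonged to *Syn*, the synapsin that holds vesicles in reserve (143485_at, chromosome arm 3R). Its levels were 3.31, 3.34, 3.47 and 3.29 on pof mutant replicates 1 to 4, and 3.43, 3.46 and 3.75 on wild type replicates 1 to 3. Wild type replicate 3 stood above the other arrays, while pof mutant replicate 3 lay within the wild-type range. The difference was -0.20 ± 0.09 (SE; limma, adjusted p = 0.962), and it was -0.09 without wild type replicate 3. In mean level it stood at percentile 3.14 of the probe sets, next to the floor.

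*Csp* encodes the cysteine string protein, a chaperone on the vesicle that keeps the fusion proteins folded (141486_at, 3L). It read 7.84, 7.95, 8.09 and 7.82 on the mutant arrays and 7.80, 7.53 and 7.84 on the wild-type arrays. The groups overlapped, and wild type replicate 2 was the lowest array. The difference was 0.20 ± 0.10 (SE; limma, adjusted p = 0.962), and 0.10 without that array.

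The vesicle SNARE gene *nSyb* (151978_at, 3L) read 6.005, 5.87, 6.40 and 6.43 in the mutant and 5.83, 6.36 and 6.65 in wild type. The lowest values were those of the 3 arrays with a 3' minus 5' difference above 3, in both groups. Its difference was -0.10 ± 0.22 (SE). *Rop*, whose protein binds syntaxin and is needed for fusion, followed a similar course with 7.78, 7.63, 8.50 and 8.002 in the mutant and 7.29, 8.07 and 8.08 in wild type (difference 0.16 ± 0.26, SE). These levels of *nSyb* and *Rop* were chosen for display after they were seen.

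*unc-13*, which primes vesicles for release, was the only member on chromosome 4, the chromosome that the POF protein coats (154453_at). It read 4.65, 4.90, 5.22 and 4.86 on the mutant arrays and 4.65, 4.90 and 5.52 on the wild-type arrays. The highest value was on wild type replicate 3 and the rest overlapped. The difference was -0.11 ± 0.21 (SE), with a 95% interval of -0.61 to 0.38, and it was 0.14 without wild type replicate 3 (limma, adjusted p = 0.97 on all arrays).

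The remaining release genes had small differences and small errors. *brp*, the scaffold of the active zone, differed by 0.02 ± 0.09 (SE), *shi*, the dynamin that pinches vesicles off the membrane, by -0.05 ± 0.06, and the vesicle GTPase gene *Rab3* by -0.05 ± 0.08. Their values over all 7 arrays spanned 0.29, 0.18 and 0.30, against 0.82 for *nSyb* and 1.22 for *Rop*.

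All 11 genes of channels and the sodium pump were measured, 4 with a lower and 7 with a higher mean in the mutant and a median difference of 0.05. *Shal*, a potassium channel of the cell body and dendrites that carries fast transient current (143546_at, 3L), read 6.47, 6.37, 6.46 and 6.52 in the mutant and 6.12, 6.38 and 6.30 in wild type. Only wild type replicate 2 lay above the lowest mutant array, and wild type replicate 1 was lowest. The difference was 0.19 ± 0.08 (SE; limma, unadjusted p = 0.0446, adjusted p = 0.898), a factor of 1.14. Without wild type replicate 1 it was 0.12, with an unadjusted p of 0.121 (limma, adjusted p = 0.794).

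The other potassium channel genes of the Shaker type leaned the other way, within 1.5 standard errors of 0. *Shaw* differed by -0.14 ± 0.09 (SE), *Sh*, the founding member of the type, by -0.06 ± 0.07, and *Shab*, the main delayed rectifier, by -0.06 ± 0.09. *eag* (0.05 ± 0.06) and *sei* (0.05 ± 0.07), channels of another potassium family, and the calcium-activated *slo* (0.06 ± 0.12) had means slightly higher in the mutant. *para*, the gene of the voltage-gated sodium channel, read 4.92, 5.28, 5.14 and 5.11 in the mutant and 5.40, 5.28 and 5.14 in wild type. Its difference was -0.16 ± 0.10 (SE; limma, adjusted p = 0.962), with pof mutant replicate 1 the lowest array and wild type replicate 1 the highest. Without either of these it was -0.09. *cac*, the presynaptic calcium channel that triggers release, had one of the narrowest intervals of the set, -0.13 to 0.15, around a difference of 0.0091 ± 0.06 (SE).

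The sodium pump's beta subunits gave a wide and a narrow result. *nrv3* (146586_at, 2L), the subunit known from neurons, read 8.35, 8.20, 8.94 and 8.52 in the mutant and 7.45, 8.35 and 8.48 in wild type. Wild type replicate 1 lay far below every other array, and without it the other wild-type arrays lay within the mutant range. The difference was 0.41 ± 0.27 (SE; limma, adjusted p = 0.962) on all arrays and 0.09 without wild type replicate 1. *nrv2*, the subunit of glia and epithelia, differed by 0.10 ± 0.07 (SE) at a mean level of 4.13.

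Among the transmitter genes, 5 of 6 were measured, with a lower mutant mean in 3, a higher one in 2 and a median difference of -0.02. *Rdl*, a GABA-gated chloride channel of inhibitory synapses (152254_at, 3L), had the smallest p of the set. It read 6.65, 6.85, 6.61 and 6.57 on pof mutant replicates 1 to 4, and 6.31, 6.05 and 6.57 on wild type replicates 1 to 3. The lowest mutant array and the highest wild-type array were both at 6.57, so the groups touched at that value and were apart elsewhere. Group means were 6.67 ± 0.13 (SD, n = 4) and 6.31 ± 0.26 (SD, n = 3), a difference of 0.36 ± 0.13 (SE; limma, unadjusted p = 0.0241, adjusted p = 0.806) or 1.29-fold.

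The difference of *Rdl* kept its sign with each array left out in turn, between 0.23 and 0.49. The smallest value, 0.23, came without wild type replicate 2 (limma, unadjusted p = 0.0895), and without pof mutant replicate 2 it was 0.30 (unadjusted p = 0.0605). Without wild type replicate 1, one of the arrays with a large 3' minus 5' difference, it was 0.36. With limma's array weights, *Rdl* (0.57, adjusted p = 0.0105) and *Csp* (0.36, adjusted p = 0.0215) passed the threshold, in a fit that gave wild type replicate 2 a weight of 17.1 against 0.142 to 1.40 for the others and passed 8.59% of all probe sets. In that fit 10 of the 31 genes had an unadjusted p under 0.05, where 25.7% of all genes did.

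The other transmitter genes name the cells by what they release. *Gad1*, the enzyme that makes GABA, read 7.05, 7.11, 7.82 and 7.57 in the mutant and 6.91, 7.70 and 7.70 in wild type. Both groups split into arrays near 7 and arrays above 7.5, and the difference between the groups was -0.05 ± 0.26 (SE). *Ace*, the acetylcholinesterase that ends cholinergic signals, differed by -0.02 ± 0.19 (SE), and *ChAT*, which makes acetylcholine, by 0.08 ± 0.10. *VGlut*, which loads glutamate into vesicles and marks motor neurons, read 6.01, 6.05, 6.08 and 6.14 in the mutant and 6.26, 6.09 and 6.18 in wild type. Only pof mutant replicate 4 exceeded the lowest wild-type array, and the difference was -0.10 ± 0.07 (SE; limma, adjusted p = 0.962), or -0.06 without wild type replicate 1.

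In the adhesion and cytoskeleton group 3 of 4 genes were measured, with a median difference of -0.04. *futsch*, a microtubule-binding protein of axons and motor terminals (144060_at, X), read 6.63, 6.74, 6.60 and 6.57 in the mutant and 6.88, 6.72 and 6.69 in wild type. Pof mutant replicate 2 lay within the wild-type range and the other mutant arrays below it. The difference was -0.13 ± 0.07 (SE; limma, adjusted p = 0.962), and -0.07 without wild type replicate 1, the highest array. *Appl*, the fly's amyloid precursor-like gene, differed by -0.04 ± 0.06 (SE).

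*Nrg*, the cell adhesion gene neuroglian, which glia and epithelia also express (151921_at, X), read 7.64, 8.19, 8.18 and 8.20 in the mutant and 7.39, 7.59 and 8.31 in wild type. The arrays formed a lower set of 3 and an upper set of 4, each holding arrays of both groups. The difference was 0.29 ± 0.24 (SE; limma, adjusted p = 0.962), 0.56 without wild type replicate 3 (unadjusted p = 0.0157) and 0.10 without wild type replicate 1 (unadjusted p = 0.675).

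The RNA-binding regulators *elav* and *fne* belong to one protein family and are known from nearly all neurons. *elav* (154632_at, X) read 3.47, 3.78, 3.81 and 3.96 in the mutant and 3.27, 3.58 and 4.49 in wild type. The wild-type arrays spanned the whole mutant range, and the difference of -0.03 ± 0.27 (SE) turned to 0.33 without wild type replicate 3 and to -0.28 without wild type replicate 1. *fne* (144973_at, X) read 7.48, 7.29, 7.56 and 7.37 in the mutant and 6.54, 7.22 and 7.63 in wild type. Its difference of 0.30 ± 0.23 (SE; limma, adjusted p = 0.962) was -0.00055 without wild type replicate 1 and 0.55 without wild type replicate 3.

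Of the glial genes 2 of 3 were measured. *Gs2*, a glutamine synthetase that glia use to recycle glutamate and that other tissues express too (143181_at, X), had the largest difference of the 31 genes and the largest error. It read 9.63, 9.10, 10.10 and 9.51 in the mutant and 7.99, 9.09 and 9.77 in wild type. Wild type replicate 1 lay more than 1 below every other array, and the remaining wild-type arrays overlapped the mutant. The difference of 0.64 ± 0.40 (SE; limma, adjusted p = 0.962) was 0.15 without wild type replicate 1 and 1.05 without wild type replicate 3. *repo*, the homeobox gene of glial identity (152011_at, 3R), read 4.24, 4.24, 4.11 and 4.10 in the mutant and 4.26, 4.17 and 4.22 in wild type, a difference of -0.04 ± 0.07 (SE).

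**Figure D2:**
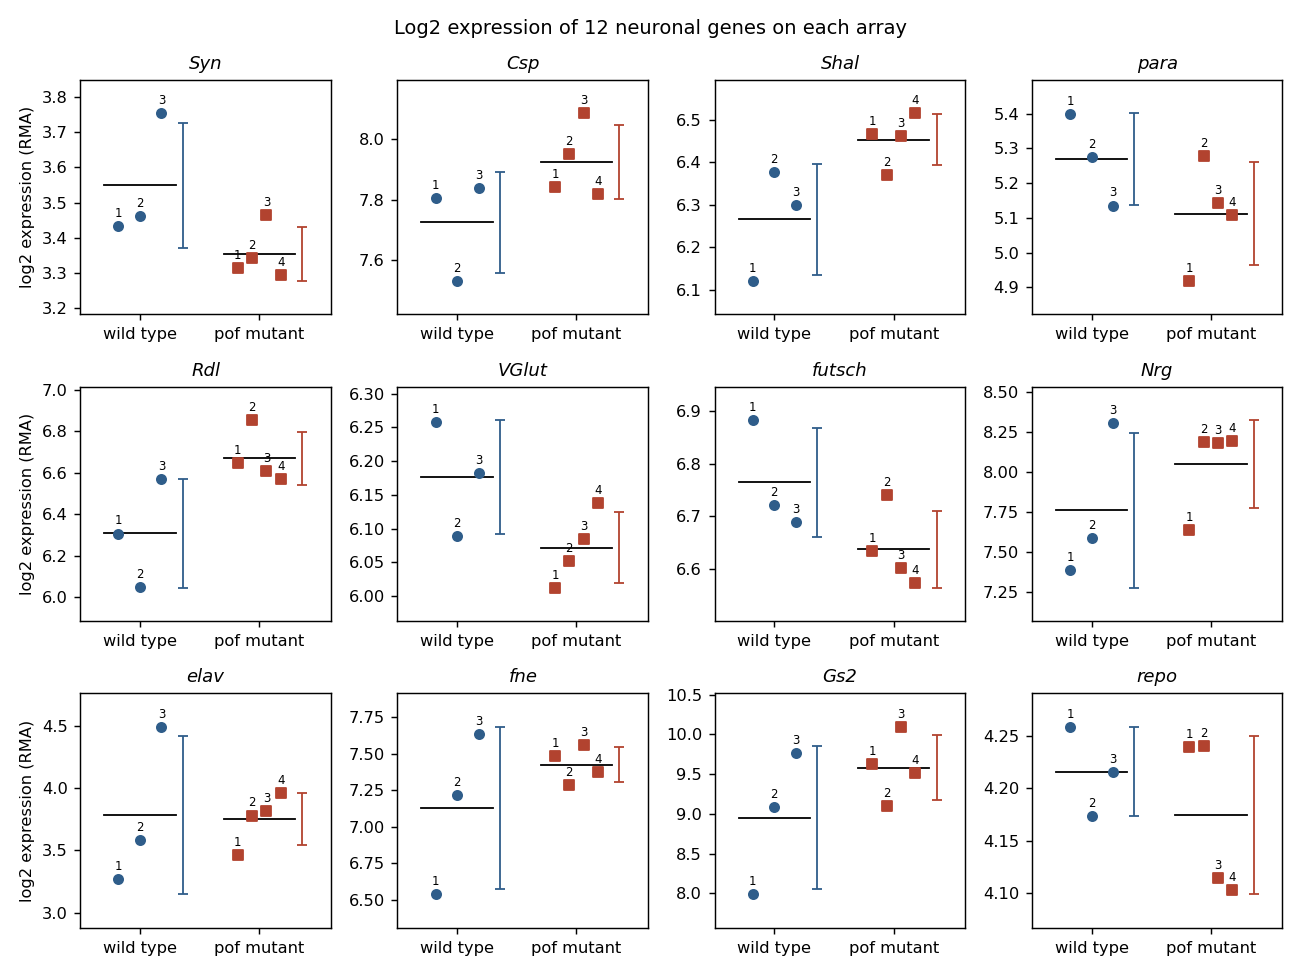
Log2 expression (vertical axis, its own range in each panel) of 12 neuronal genes on the 3 wild-type (blue circles) and 4 pof mutant (red squares) arrays, with replicate numbers, group means (black lines) and SD (bars beside the points). *Rdl* touches between the groups at 6.57, and *fne* and *Gs2* show wild type replicate 1 alone at 6.54 and 7.99.

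Some members varied widely among the arrays of 1 group, and others hardly at all. Over the 7 arrays, 13 genes spanned at least 0.5 (41.9%, against 29.6% of all genes), and 5 of them at least 1 (16.1%, against 5.99%). The largest spans were those of *Gs2* (2.11), *nrv3* (1.49), *elav* (1.22), *Rop* (1.22) and *fne* (1.10). At the other end *cac* spanned 0.14, *repo* 0.16, *Appl* 0.16, *eag* 0.17 and *sei* 0.18.

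The lowest array was wild type replicate 1 in 10 of those 13 genes, where it was lowest in 42.1% of all genes with a span of at least 0.5. The highest array was pof mutant replicate 3 or wild type replicate 3, with 6 genes each, in all but *Rdl*. After each gene was centred on its own mean, the median of the 13 genes was -0.49 on wild type replicate 1, -0.12 on pof mutant replicate 2, -0.09 on pof mutant replicate 1 and -0.08 on wild type replicate 2. It was 0.12 on pof mutant replicate 4, 0.26 on pof mutant replicate 3 and 0.34 on wild type replicate 3. The 3 arrays with the largest 3' minus 5' differences had the 3 lowest medians, in both groups. Pof mutant replicate 1 (-0.09) was nearly tied with wild type replicate 2 (-0.08), where the 3' minus 5' difference was 2.02.

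The other 18 genes did not take this course. Their centred median stayed between -0.06 and 0.05 on every array, and 8 of them, among them *Sh*, *Shab*, *Shaw*, *para* and *futsch*, were highest on wild type replicate 1. That array was the highest for 35.4% of all genes, whatever their span. Muscle genes varied with the 13: over 5 measured of 8 muscle markers the centred median was -1.21 on wild type replicate 1, 0.05 on wild type replicate 2 and 0.71 on wild type replicate 3. In the mutant it was -0.19, -0.16, 0.26 and 0.42 on replicates 1 to 4. The part of muscle and of transcript evenness in the neuronal values was not tested. These groups of 13 and 18 genes were formed from the values and are a description.

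**Figure D3:**
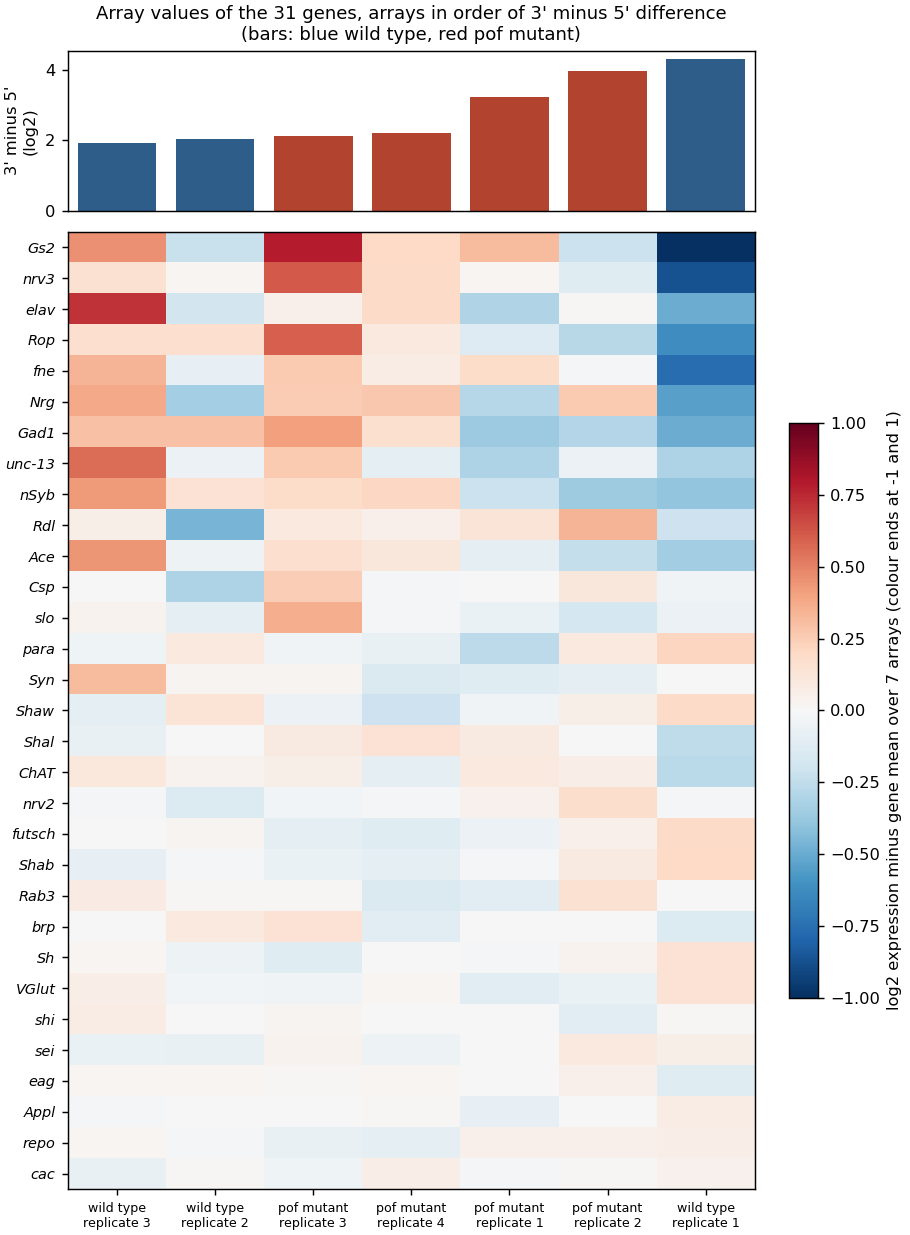
Centred log2 expression of the 31 genes (rows, widest span at the top) on the 7 arrays, which stand in order of the 3' minus 5' difference shown as bars above. The upper rows are blue on wild type replicate 1, where *Gs2* lies beyond the colour scale, and red on wild type replicate 3 or pof mutant replicate 3, while the lower rows are pale throughout.

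With the 3' minus 5' difference as a covariate, errors shrank and 6 of the 31 genes had an unadjusted p under 0.05, against 15.5% of all genes in that fit. The 6 were *nrv3* (0.45 ± 0.10, SE), *Gs2* (0.70 ± 0.20), *Shal* (0.20 ± 0.05), *Rdl* (0.36 ± 0.12) and *fne* (0.33 ± 0.14), all higher in the mutant, and *futsch* (-0.14 ± 0.05). None passed the threshold, the smallest adjusted p being that of *nrv3* (limma, adjusted p = 0.111), while 0.616% of all probe sets did. The 4 arrays with a 3' minus 5' difference under 3 were pof mutant replicates 3 and 4 and wild type replicates 2 and 3. On these arrays alone the differences of *nrv3* and *Gs2* were 0.32 and 0.37. None of the 31 had an unadjusted p under 0.05 there, in a fit with fewer arrays and so less power. The share of all genes in that fit is not given, so this count is no result about the members.

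Several members were covered by more than 1 probe set, which gives a second reading of the same gene. Of 7 such genes, the probe sets of *Shab* (3), *futsch* (3) and *ChAT* (2) had differences of 1 sign, and those of *brp* (3), *cac* (2), *Sh* (4) and *Shaw* (2) did not. For *Shab* the 3 differences ran only from -0.07 to -0.05, and for *Sh* the 4 ran from -0.13 to 0.02. *Shaw* had the widest disagreement, with -0.14 ± 0.09 (SE) for 143351_at and 0.17 ± 0.11 for 151187_at. For *ChAT* the probe set not used for the gene, 142522_at, differed by 0.28 ± 0.15 (SE) against 0.08 ± 0.10 for 151604_s_at. It read 5.67 on wild type replicate 1 and 6.18 to 6.49 on the other arrays. No probe set of the 7 genes passed limma's threshold.

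**Figure D4:**
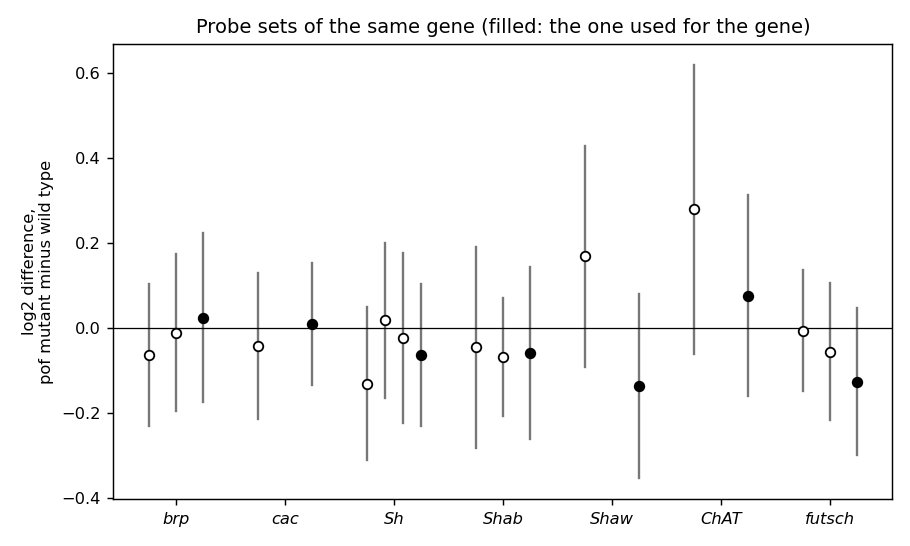
Log2 difference between pof mutant and wild type, with its 95% interval from limma (bars), for each probe set of the 7 genes with more than 1, ordered by mean level within a gene. Filled points mark the probe set used for the gene, and the intervals of all probe sets include 0, with *Shaw* the gene whose probe sets lie farthest apart (-0.14 and 0.17).

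Further genes of the same processes were counted as lists. No gene of these lists passed limma's threshold. Over all genes, 5.73% had an unadjusted p under 0.05, and in 6.26% the groups did not overlap. Of other release genes 21 of 25 were measured, 12 with a lower mean and 9 with a higher one and a median difference of -0.02. The 1 gene with an unadjusted p under 0.05 (4.76%) was *Syt7*, a synaptotagmin on chromosome 4. *Syt7* read 4.32, 4.36, 4.60 and 4.35 in the mutant and 4.74, 4.62 and 4.72 in wild type. All mutant arrays lay below all wild-type arrays, narrowly so for pof mutant replicate 3, and the difference was -0.28 ± 0.08 (SE; limma, adjusted p = 0.608). The other chromosome 4 genes of these lists were *mGluR* (0.01 ± 0.07), *onecut* (-0.14 ± 0.13) and *Gat* (-0.17 ± 0.39, SE). Each had overlapping groups and an unadjusted p above 0.05.

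Of other channel genes 17 of 19 were measured, none with an unadjusted p under 0.05, and their median was -0.01. Of receptors for acetylcholine, glutamate and GABA 22 of 27 were measured, 11 higher and 11 lower, with a median of -0.0083. The 1 with an unadjusted p under 0.05 (4.55%, against 5.73% of all genes) was *GluRIID*, a subunit of the glutamate receptor of the nerve-muscle synapse. It read 4.01, 4.33, 4.31 and 4.03 in the mutant and 4.78, 4.39 and 4.41 in wild type. Its groups did not overlap, as in 6.26% of all genes (difference -0.36 ± 0.13, SE; limma, adjusted p = 0.808). In mean level it stood at percentile 16 of the probe sets.

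Monoamine and peptide genes had the most members with a small p. Of 26 named, 22 were measured, and 5 (22.7%) had an unadjusted p under 0.05, against 5.73% of all genes. The mutant mean was higher in 3 of the 5. In 4 of the 22 the groups did not overlap, against 6.26% of all genes. The proprotein convertase *amon*, which cuts neuropeptides from their precursors, read 4.49, 4.52, 4.48 and 4.35 in the mutant and 4.01, 4.16 and 4.29 in wild type (difference 0.31 ± 0.08, SE; limma, adjusted p = 0.49). *Ddc*, the decarboxylase of dopamine and serotonin synthesis, which the epidermis also uses for cuticle hardening, read 7.34, 7.41, 7.28 and 7.32 in the mutant and 6.55, 7.05 and 7.23 in wild type (difference 0.40 ± 0.15, SE).

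The neuropeptide gene *NPF* was also higher in mean (0.29 ± 0.11, SE), with mutant arrays at 6.13 to 6.29 and wild-type arrays at 5.67 to 6.10. *Tbh*, which makes octopamine, was lower (-0.24 ± 0.09, SE), with 3.98 to 4.22 in the mutant and 4.23 to 4.41 in wild type. *sNPF*, the fifth by p, differed by -0.23 ± 0.10 (SE) and its groups overlapped. By limma, no adjusted p among *Ddc*, *NPF*, *Tbh* and *sNPF* was below 0.808. The median difference of the list was -0.04. *Ddc*, *NPF* and *amon* were each lowest on wild type replicate 1, and *Tbh* and *sNPF* were each highest on that array.

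Among 14 measured of 15 regulators of neural precursors and differentiation the median was -0.03. The 1 gene with an unadjusted p under 0.05 (7.14%, against 5.73% of all genes) was *brat*, which limits neuroblast self-renewal. Its difference was 0.23 ± 0.09 (SE; limma, adjusted p = 0.885). All 11 further genes listed for glia were measured, 5 higher and 6 lower, with a median of -0.00022 and none with an unadjusted p under 0.05. Of these, *Gat* was also counted in the monoamine and peptide list and *nrv1* among the other channel genes. Among them the epithelial and glial genes *Gat*, *cora* and *nrv1* spanned 1.44, 1.31 and 1.24 over the arrays.

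Markers of other larval tissues were set beside the neuronal genes. Of the midgut markers, all 5 of them measured, none passed limma's threshold. The groups did not overlap for 4, each with an unadjusted p under 0.05 (3 with higher mutant means), against 6.26% and 5.73% of all genes. The markers were chosen with earlier results of these data known, so these counts are a description only. The median difference was 0.65, and single differences ran from -0.58 (*Jon25Biii*) to 1.37 (*betaTry*). The centred median of the midgut markers was 0.41, -0.00087, 0.46 and 0.13 on pof mutant replicates 1 to 4. It was -0.43, -0.14 and -0.41 on the wild-type arrays, and its part in the neuronal values was not tested. The median difference was 0.07 for 5 measured muscle markers, -0.02 for 3 of fat body, 0.02 for 4 of haemocytes and 0.0064 for 4 of neuroblasts. *Pxn*, a haemocyte peroxidase, was the only one of these 16 with an unadjusted p under 0.05 (-0.32 ± 0.13, SE), against 5.73% of all genes.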

How the data were processed

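RNA from whole larvae was hybridised to 1 Affymetrix array per pool, and groups and replicate numbers come from the sample titles. Values deposited by the authors are on the log2 scale. They were made with RMA (version not given), as the submitters' processing notes record. RMA quantile normalizes the arrays, which makes arrays comparable within a probe set and compresses low signals. No further normalization was applied. Precision is limited by the small number of arrays. No pair of them was identical.

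Probe sets were named through the platform annotation with symbols updated from RefSeq (Release 6), where 12394 of 12443 with 1 gene matched. The 327 with several genes were tested and not named. All 13966 probe sets other than the 44 controls were fitted with limma 3.58.1 in R 4.3.3 (lmFit, eBayes, no covariate), with Benjamini-Hochberg adjustment over all of them. Standard errors are limma's moderated ones. Medians and counts over gene lists have no test. Figures used matplotlib 3.10.9 in Python 3.11.15.

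The members, their roles and the lists were chosen with earlier results of these data known. All members may be named with their difference, array values are given for members with an unadjusted p under 0.05 and the 2 with the smallest p in each role group, and list genes are named at an unadjusted p under 0.05, at most 4 per list. *sNPF*, the array values of *nSyb*, *Rop*, *unc-13*, *nrv3* and *Gad1*, and the spans of *Gat*, *cora* and *nrv1* were added after their values were seen. So were the differences of *mGluR*, *onecut*, *Gat*, *betaTry* and *Jon25Biii*. In simulated data over 13966 probe sets, 52%, 86.4% and 96.8% of changes of 0.5, 1 and 2 (log2) were recovered. The simulated noise of 1 probe set had no link to that of another. These shares are not the power of the real arrays, since the adjustment depends on how many probe sets change. In the real data 9 probe sets passed, and *betaTry*, with a difference of 1.37 ± 0.22 (SE), did not (limma, adjusted p = 0.156). The alternatives were another quantile normalization, a level of at least 6, trend and robust eBayes, array weights, the replicate number as a block, the 3' minus 5' covariate, other choices of probe set, each array left out, and, added after the data were seen, only the 4 most even arrays. The deviations of same-numbered arrays had correlations of mixed sign (0.245, -0.571 and 0.559), and the labels state no pairing.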

Additional observations from a re-analysis of the deposited data

Results flagged for a closer look

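Outlying arrays were sought with Dixon's test at 95% among the 4 mutant arrays, and not among the 3 of wild type. The test ran on 44 genes, the members and the list genes with an unadjusted p under 0.05, and marked 1 array in 3 of them. About 1 in 20 genes (2.2) would be marked by chance. For *Nrg* it was pof mutant replicate 1, which read 7.64 where the other mutant arrays had a median of 8.19. For *Appl* it was the same array, with 7.47 beside a median of 7.56. For *Syt7* it was pof mutant replicate 3, with 4.60 beside 4.35.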

How the results depend on the processing

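Of 486 values of single members under the alternatives, 443 kept their sign and their side of the threshold, 2 passed it (*Rdl* and *Csp* with array weights) and 41, of 16 genes, changed sign without passing. Apart from array weights, the smallest adjusted p of any member under an alternative was 0.111 (limma, with the covariate). The count of all probe sets past the threshold was 9, and it was 0 to 34 with 1 array left out, 1200 with array weights, 86 with the covariate, 16 with the mean of a gene's probe sets, 2 with the replicate block and 0 on the 4 most even arrays. Members past the threshold numbered 0 with each array left out and 2 with array weights. Members with an unadjusted p under 0.05 numbered 1 to 5 with 1 array left out (8% of all genes without wild type replicate 3). They numbered 10 with array weights (where 25.7% of all genes had such a p) and 6 with the covariate (15.5% of all genes). With the replicate block or on the 4 most even arrays they numbered 0. The share of all genes is not given for the fits named without one, so those counts are no result about the members. The block drops pof mutant replicate 4, and the labels do not say that the numbers pair the arrays. Of the 21 members with a level of at least 6, 9 had a lower mean, and their median was 0.049 over all and 0.64 for the glial gene left. With 1 array left out the median of all members ran from -0.033 to 0.082, of vesicle release from -0.085 to 0.056, of transmitter genes from -0.085 to 0.15, of pan-neuronal regulators from -0.14 to 0.44 and of glial genes from 0.067 to 0.50. The adhesion median was 0.018 on the 4 most even arrays.

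The sign of small differences turned as follows. With array weights *brp* was -0.099, *Rop* -0.069, *cac* -0.0013, *Sh* 0.018, *eag* -0.00021, *ChAT* -0.017, *Ace* 0.060 and *elav* 0.15. With the mean of probe sets *brp* was -0.017, *cac* -0.017 and *Shaw* 0.016. On the 4 most even arrays *brp* was -0.029, *eag* -0.0022, *ChAT* -0.087 and *Appl* 0.018. *elav* was 0.0068 after another quantile normalization, and *Ace* and *elav* were 0.0020 and 0.0022 with the covariate. *cac* was -0.011 with the replicate block. With 1 array left out *nSyb* ran from -0.33 to 0.082, *brp* from -0.039 to 0.081, *Rop* from -0.099 to 0.30, *unc-13* from -0.30 to 0.14, *cac* from -0.026 to 0.035, *Shab* from -0.12 to 0.025, *slo* from -0.049 to 0.13, *ChAT* from -0.038 to 0.15, *Ace* from -0.20 to 0.19, *Gad1* from -0.31 to 0.083, *elav* from -0.28 to 0.33 and *fne* from -0.00055 to 0.55. Other members kept their sign in the fits with 1 array left out but moved by over 1.5 times. Among them *Shaw* ran from -0.22 to -0.081, *Sh* from -0.11 to -0.011, *Rab3* from -0.11 to -0.011 and *shi* from -0.064 to -0.019. *Appl* ran from -0.057 to -0.0072, *repo* from -0.063 to -0.018, *eag* from 0.0028 to 0.074, *sei* from 0.023 to 0.094 and *nrv2* from 0.055 to 0.12. *Gs2* ran from 0.15 to 1.05, *nrv3* from 0.09 to 0.60, *Nrg* from 0.10 to 0.56 and *Syn* from -0.25 to -0.09. Apart from the changed array set or weighting, the cause of these turns was not tested.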
